A study of Homo sapiens and Mus musculus with 74 samples.

Results

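A set of 10 genes that encode very short proteins of the endoplasmic reticulum (ER) and mitochondrial protein-import machineries were followed through the mouse libraries of a study of Rpl41, the gene of the smallest ribosomal protein. These members were taken by symbol from GENCODE M21, out of 22484 coding genes in the mouse count table. They are Sec61b, Sec61g, Ost4, Tmem258 and Serp1 of the ER, and Tomm5, Tomm6, Tomm7, Romo1 and Timm8b of mitochondria. Each gene was read from its transcript with the longest annotated protein, and the table lists 31 transcripts of these genes in all. The samples are kidney and brain of adult male C57BL/6J mice, either wild type (WT) or Rpl41 KO, in which CRISPR editing had removed the whole Rpl41 coding sequence. RNA-seq measured transcripts, Ribo-seq measured ribosome-protected fragments (RPFs), the mRNA pieces covered by 1 ribosome, and disome-seq, in kidney only, measured the longer pieces covered by 2 adjoining ribosomes. Each tissue, genotype and assay had 3 libraries, 30 in all.

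Proteins bound for the ER are threaded through the Sec61 channel, a large alpha subunit held together by the small single-span subunits beta (Sec61b) and gamma (Sec61g). Oligosaccharyltransferase, docked beside the channel, attaches glycans to the emerging chain, and Ost4 and Tmem258 are 2 of its small subunits. Serp1, also called RAMP4, sits at the translocon and is made in larger amounts under ER stress. Most mitochondrial proteins enter through the TOM channel of the outer membrane, formed by Tomm40 together with the small subunits Tomm5, Tomm6 and Tomm7. Romo1 is a small inner-membrane protein, and Timm8b belongs to the small TIM chaperones that escort hydrophobic precursors across the intermembrane space. Several of these proteins are so short that their membrane segment is still inside the ribosome, or only just leaving it, when translation ends, so they insert after synthesis.

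The coding sequences below show how little mRNA a ribosome has to cross on these transcripts. They are the principal coding sequences of GENCODE M21, written 5′ to 3′ with the start and stop codons in capitals. For Tomm5 this is a shorter form than the transcript its counts were read from. Ost4 is the shortest member, and Tomm5, Tomm7 and Romo1 are the members whose kidney footprints passed the test under the most settings. Serp1 is a member of like length that passed under none of the 14 alternatives. Tomm6, whose sequence is not printed, also passed under none of them.
Ost4: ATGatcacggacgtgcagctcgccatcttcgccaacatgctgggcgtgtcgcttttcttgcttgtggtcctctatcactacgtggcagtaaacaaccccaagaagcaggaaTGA
Tomm5: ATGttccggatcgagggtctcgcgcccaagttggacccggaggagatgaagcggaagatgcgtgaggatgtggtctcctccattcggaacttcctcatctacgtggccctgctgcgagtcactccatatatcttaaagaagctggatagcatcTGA
Tomm7: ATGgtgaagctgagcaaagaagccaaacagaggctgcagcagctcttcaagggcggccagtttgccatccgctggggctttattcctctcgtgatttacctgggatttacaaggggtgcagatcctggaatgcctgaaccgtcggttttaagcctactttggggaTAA
Romo1: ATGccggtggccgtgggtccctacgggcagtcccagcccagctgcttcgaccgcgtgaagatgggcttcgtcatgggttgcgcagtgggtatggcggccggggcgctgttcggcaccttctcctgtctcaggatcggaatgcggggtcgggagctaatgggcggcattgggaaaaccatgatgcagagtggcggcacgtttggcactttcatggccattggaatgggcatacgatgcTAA
Serp1: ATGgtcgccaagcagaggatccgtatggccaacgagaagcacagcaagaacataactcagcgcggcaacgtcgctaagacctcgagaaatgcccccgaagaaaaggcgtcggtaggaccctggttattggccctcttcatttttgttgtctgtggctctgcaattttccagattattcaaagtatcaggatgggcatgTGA

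On GRCm38, Ost4 spans chromosome 5, 30905885 to 30907788, on the minus strand, and its protein has 37 amino acids from 114 coding bases. Tomm5 (chromosome 4, 45105208 to 45108114, minus strand) has a principal protein of 51 amino acids, whereas the transcript with the longest protein encodes 104. Tomm7 (chromosome 5, 23838944 to 23844161, minus strand) encodes 55 amino acids. Serp1 (chromosome 3, 58519817 to 58525892, minus strand) encodes 66, and Romo1 (chromosome 2, 156144039 to 156145797, plus strand) encodes 79. Sec61b (chromosome 4, 47474658 to 47483242, plus strand) and Sec61g (chromosome 11, 16500530 to 16508484, minus strand) have principal proteins of 96 and 68 amino acids, but the transcripts read here encode 140, with an incomplete end, and 100. Tomm6 (chromosome 17, 47686646 to 47688386, minus strand) encodes 74, Tmem258 (chromosome 19, 10204014 to 10207824, plus strand) 79 and Timm8b (chromosome 9, 50603910 to 50605320, plus strand) 83 amino acids.

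The translated sequences bore out the membrane label for the 5 ER members and did not bear it out for Timm8b. The mean Kyte-Doolittle hydropathy of the best window of 19 residues was 2.24 to 2.59 in Sec61b, Sec61g, Ost4, Tmem258 and Serp1. It was 1.16 in Tomm7, 1.27 in Tomm5, 1.35 in Tomm6 and 1.68 in Romo1. Timm8b had the lowest value, 0.68, and carried 2 CX3C motifs, the twin cysteine pairs of the soluble small TIM chaperones. Timm8b is thus a mitochondrial import protein but not a membrane one. The hydrophobic window ended 7 residues before the C terminus in Sec61b, Tmem258 and Serp1, 9 before it in Tomm5 and 42 before it in Romo1.

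Reads of these short genes are not all unique. The authors allowed reads that map to several places, and a window of 28 bases of the principal coding sequence, about the size of a footprint, was taken as shared where the same bases occur in another annotated gene. All windows of Sec61g were shared, with 11 other genes, and all windows of Tomm6 were shared with an overlapping gene, Gm21981. The shared part was 87.1% in Sec61b, 68.2% in Tomm5, 54.0% in Ost4, 39.0% in Tomm7, 19.2% in Tmem258 and 13.6% in Romo1. No window of Serp1 or Timm8b was shared. Some copies had footprint counts but few RNA counts. Gm8069, a processed pseudogene that shares windows with Tomm5, had 49 to 193 counts in the 6 kidney Ribo-seq libraries and 0 to 3 in kidney RNA-seq. Gm19774, a processed pseudogene like Ost4, had 65 to 278 and 0 to 3. Gm21981 differed, with 1775 to 3120 counts in kidney RNA-seq. Counts of Sec61g, Tomm6, Sec61b, Tomm5 and Ost4 are therefore uncertain as to the gene of origin. The limit also reaches Tomm7, Tmem258 and Romo1, over the smaller parts that they share. Gm45113, a processed pseudogene that shares windows with Tomm7, had 78 to 303 counts in kidney Ribo-seq and 0 to 5 in kidney RNA-seq. Gm12497, which shares windows with Romo1, had 101 to 333 and 0 to 3.

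Ribo-seq libraries held 11036643 to 42452425 counts for kidney and 9498663 to 35881929 for brain. RNA-seq was deeper, at 44998381 to 55077048 counts for kidney and 84433838 to 123745890 for brain, and disome-seq shallower, at 1187636 to 3018963. Rpl41 itself fell from 3695 to 7502 counts in WT kidney RNA-seq to 3 to 8 in KO. Libraries matched their tissue: the 9 tubule markers summed to 4441 to 4866 CPM, counts scaled to a common library size, in kidney RNA-seq and 3.38 to 4.84 in brain, where Umod was at 0 in all libraries. KO kidney RNA-seq libraries 2 and 3 stood apart, with 1.76% and 1.67% of counts on mitochondrial rRNA against 0.436% to 0.962% in the other 4, and 83287 and 86071 transcripts detected against 91222 to 93091. KO kidney Ribo-seq libraries 2 and 3 also stood apart, with 0.208% and 0.185% of counts on mitochondrial rRNA against 0.357% to 0.538% in the other 4, and with 42452425 and 39384669 counts against 11036643 to 25882664.

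In WT tissue the order of the members by level per length differed between RNA and footprints. Levels are CPM after TMM scaling, a correction for the composition of each library, divided by the length in kilobases of the transcript for RNA and of the coding sequence of the same transcript for RPFs and disomes. In WT kidney RNA, Romo1 was at 61.9 ± 5.47 (SD, n = 3), Timm8b at 59.5 ± 10.4 and Tomm6 at 51.8 ± 6.65 CPM per kb, each within the spread of its neighbour. Sec61b (42.9) and Tomm7 (36.4) followed without separating from each other, then Ost4, Tmem258 and Serp1 (23.7, 23.4 and 18.4), then Tomm5 at 10.6 and Sec61g at 0.662. In WT kidney RPFs, Tomm7 (173 ± 31.0), Romo1 (156 ± 9.21) and Ost4 (153 ± 10.9) CPM per kb led and did not separate, ahead of Tomm6 (108), Serp1 (100.3) and Sec61g (87.7). Timm8b (59.8), Tmem258 (56.0) and Sec61b (54.6) followed without separating, and Tomm5 came last at 29.8. The order depends on the length used for the 3 members with a shorter principal form: over that length Tomm5 was at 59.7, beside Timm8b, Sec61b at 78.9 and Sec61g at 127. In WT brain, Timm8b (59.1 ± 15.2) and Tomm6 (57.2 ± 15.2) led in RNA without separating, Serp1 was last in RNA (4.29 ± 0.909), and Tomm7 (137 ± 16.8) led in RPFs. Serp1 (25.6 ± 7.03), Tomm5 (24.0 ± 3.19) and Sec61b (21.6 ± 3.81) were lowest in brain RPFs and did not separate. In WT kidney disomes Sec61g led at 239 ± 61.5, ahead of Tomm7 at 174 ± 17.1, and Tomm5 was last at 8.14 ± 4.28.

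Sec61g stood out among the members for its RNA. It had 19 to 54 RNA-seq counts in the 6 kidney libraries and 1053 to 1571 in the 6 brain libraries, while its kidney footprints numbered 214 to 811. Gm10177, which shares its coding windows, had 10 to 47 counts in kidney RNA-seq and 1012 to 1528 in brain. In kidney Ribo-seq it had 212 to 811 counts, close to those of Sec61g. A read that maps to both genes can enter each, so the Gm10177 counts are not separate evidence of the tissue difference. Gm16412, which also shares the Sec61g windows, had 0 to 2 counts in kidney RNA-seq and 163 to 599 in kidney Ribo-seq. How many reads were counted for several of these genes was not tested, and Sec61g values are given with that limit.

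Footprints of all 10 members were more abundant in WT kidney than in WT brain. Each passed the test (edgeR's quasi-likelihood F-test, with adjusted p from the Benjamini-Hochberg method over all transcripts tested, threshold 0.05), where 70.9% of transcripts passed in either direction and 35% passed as higher in kidney. Serp1 differed most, by 2.13 on the log2 scale (standard error, SE, 0.18), then Ost4 by 1.56 (SE 0.14), Sec61b by 1.47 (SE 0.14) and Romo1 by 1.18 (SE 0.13). The mitochondrial members Timm8b (0.31), Tomm6 (0.33), Tomm5 (0.44) and Tomm7 (0.46) differed least. DESeq2 passed 7 of the 10, where 65.3% of transcripts passed.

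In RNA, 7 of the 10 members passed the same test between WT tissues, against 64.1% of transcripts in either direction. Serp1 (2.39, SE 0.21), Sec61b (1.87, SE 0.22), Romo1 (1.12, SE 0.22), Ost4 (1.05, SE 0.22), Tmem258 (0.70, SE 0.25) and Tomm7 (0.66, SE 0.22) were higher in kidney on the log2 scale. Sec61g was lower, by -4.57 (SE 0.28). Tomm5 (-0.23, SE 0.19), Tomm6 (0.15, SE 0.22) and Timm8b (0.30, SE 0.24) did not pass.

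In kidney RPFs, 7 of 10 members fell in KO, Sec61g, Ost4, Tmem258, Tomm5, Tomm7, Romo1 and Timm8b, by between 0.38 and 0.72 on the log2 scale, that is 1.30-fold to 1.64-fold. Over all 75266 transcripts tested, 7.76% passed and 3.01% passed as lower. All 10 members had a negative log2 fold change, with a median of -0.40 against -0.01 for all transcripts. In 8 of 10 every KO library lay below every WT library, which held for 14.3% of transcripts. Fewer cells of a type and less RNA or fewer ribosomes per cell cannot be told apart in bulk tissue.

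**Figure D1:**
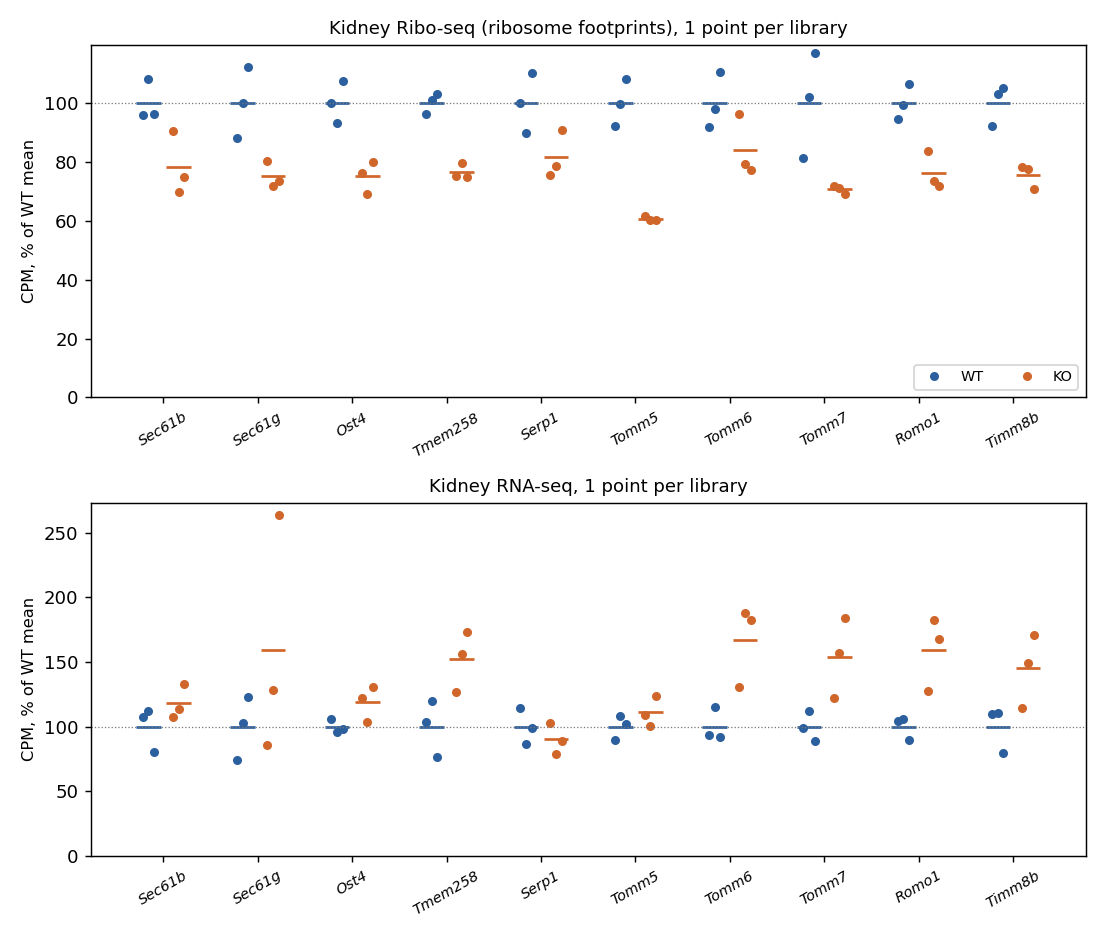
Levels of the 10 members in kidney Ribo-seq and RNA-seq, in CPM as a percent of the WT mean of each gene. Each point is 1 library, WT or KO, and bars are group means. In Ribo-seq only Serp1 and Tomm6 have KO points among the WT points, and in RNA-seq the KO points of Tmem258, Tomm6, Tomm7, Romo1 and Timm8b all lie above the WT points.

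Tomm5, a small TOM subunit, changed most. Its kidney RPFs were at 8.58, 9.27 and 10.1 CPM in WT libraries 1 to 3 and at 5.73, 5.60 and 5.61 CPM in KO libraries 1 to 3. The KO libraries were nearly equal and lay well below the lowest WT library. The log2 fold change was -0.72 (SE 0.12, adjusted p = 0.00754). Tomm7, which modulates assembly of the TOM complex, had 23.2, 29.1 and 33.4 CPM in WT and 20.4, 20.3 and 19.7 CPM in KO, with WT library 1 close to the KO values. Its log2 fold change was -0.49 (SE 0.13, adjusted p = 0.0359). Tomm6 had 22.1, 23.5 and 26.6 CPM in WT and 23.1, 19.0 and 18.6 CPM in KO, so KO library 1 fell among the WT libraries. Its log2 fold change of -0.26 (SE 0.12) had an adjusted p of 0.186.

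Romo1 had the most kidney footprints of the members, with 35.0, 36.8 and 39.4 CPM in WT and 31.0, 27.3 and 26.6 CPM in KO. The groups did not overlap, and the log2 fold change was -0.40 (SE 0.11, adjusted p = 0.0409). Timm8b had 13.7, 15.3 and 15.6 CPM in WT and 11.7, 11.5 and 10.5 CPM in KO. All KO libraries again lay below WT, with a log2 fold change of -0.41 (SE 0.11, adjusted p = 0.0362). Timm8b, the soluble member, fell by an amount inside the range of the membrane members, and it shares no coding window with another gene.

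Among the ER members, Ost4 had 16.9, 15.8 and 18.2 CPM in WT kidney RPFs and 12.9, 11.7 and 13.6 CPM in KO. The log2 fold change was -0.42 (SE 0.11, adjusted p = 0.0357), and no KO library reached a WT one. Tmem258, the other small glycosylation subunit, had 12.8, 13.4 and 13.7 CPM in WT and 9.98, 10.5 and 9.95 CPM in KO. Both groups were tight and apart, with a log2 fold change of -0.38 (SE 0.10, adjusted p = 0.0385). Sec61g had 23.2, 26.3 and 29.5 CPM in WT and 21.1, 18.9 and 19.3 CPM in KO (log2 fold change -0.41, SE 0.11, adjusted p = 0.0444).

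Sec61b and Serp1 did not pass in kidney RPFs. Sec61b had 22.0, 24.8 and 22.1 CPM in WT and 20.7, 16.0 and 17.2 CPM in KO, which did not overlap, yet the log2 fold change of -0.37 (SE 0.12) had an adjusted p of 0.0690. Serp1 had 19.9, 17.8 and 21.9 CPM in WT and 15.0, 15.6 and 18.0 CPM in KO. KO library 3 lay just above WT library 2, and the log2 fold change of -0.28 (SE 0.11) had an adjusted p of 0.146. A p-value here weighs the group difference against the spread between 3 libraries a group. The authors call the tissue replicates biological (n = 3, male), while the sample labels do not tie the libraries to separate animals.

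The number of kidney RPF calls depended on the tool and on single libraries, while the sign of every member did not. DESeq2 passed 3 members (Tomm5, Tomm7 and Romo1, where 4.69% of transcripts passed). Without KO Ribo-seq library 2 or KO library 3, the pair that stood apart in depth and mitochondrial rRNA, no member passed, where 0.713% and 0.392% of transcripts did. Without WT library 2 or WT library 3 only 1 passed, where 3.42% and 7.3% of transcripts did. Without KO library 1 or WT library 1, 3 passed, where 6.45% and 3.2% did. Of 5838 transcripts called, 3573 were higher and 2265 lower in KO. With library totals in place of TMM the split was 1531 higher and 2543 lower, with 8 members called where 5.41% of transcripts were, and DESeq2 gave 2569 higher and 964 lower.

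Some cell markers moved with genotype in the same kidney Ribo-seq libraries. The 9 tubule markers, all detected, summed to 4564 to 5395 CPM in WT and 6400 to 7216 CPM in KO. The 4 plasma cell markers, of which 3 had 10 or more counts in WT and 4 in KO, summed to 4.55 to 6.85 CPM in WT and 11.0 to 13.0 CPM in KO. The 5 pancreas markers, of which 5 had 10 or more counts in WT and 4 in KO, summed to 11.0 to 110 CPM in WT and 4.05 to 7.42 CPM in KO. In kidney RNA-seq the tubule sums overlapped, at 4471 to 4505 CPM in WT and 4441 to 4866 CPM in KO. The plasma cell sums were again higher in KO. The pancreas sums, with only 1 marker at 10 or more RNA counts, were 28.3 to 44.3 CPM in WT and 40.3 to 53.2 CPM in KO. The part of these markers in the members' fall was not tested.

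In kidney RNA no member passed the test, while the log2 fold change was positive in 9 of 10, with a median of 0.57 against -0.03 for all transcripts and 0.11 for coding genes at 1 transcript each. By edgeR 0.00992% of transcripts passed, and by DESeq2, which also passed no member, 0.766% did. At an unadjusted p under 0.05 from edgeR, 5 members stood, Tmem258, Tomm6, Tomm7, Romo1 and Timm8b, where 16.8% of transcripts did. The KO libraries of the same 5 all lay above WT, which held for 10.1% of transcripts.

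Tomm6 RNA was at 36.3, 44.5 and 35.5 CPM in WT kidney and 50.5, 73.0 and 70.6 CPM in KO, a log2 fold change of 0.74 (SE 0.18). Romo1 RNA was at 36.6, 37.4 and 31.6 CPM in WT and 44.8, 64.3 and 59.1 CPM in KO (0.67, SE 0.17). Tomm7 RNA was at 40.3, 46.0 and 36.5 CPM in WT and 49.8, 64.1 and 75.3 CPM in KO (0.62, SE 0.18). In these 3 genes KO library 1 was the KO library nearest to WT, and the adjusted p was 0.292 for each. Tmem258 (0.60, SE 0.20) and Timm8b (0.54, SE 0.20) had the same adjusted p. Serp1 was the exception in sign, at 97.0, 73.4 and 84.1 CPM in WT and 87.1, 66.7 and 75.3 CPM in KO, a log2 fold change of -0.15 (SE 0.16).

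The size of the RNA values rested in part on KO libraries 2 and 3, the pair that stood apart in mitochondrial rRNA and transcripts detected. With both left out, so that KO library 1 stood alone and was assumed to vary like WT, the median of the members was 0.24 and none passed. Without KO library 1, 5 members passed and 17% of all transcripts did. Glomerulus markers (both detected) summed to 22.0 to 29.3 CPM in WT kidney RNA and 13.6 to 14.6 CPM in KO, and the 4 plasma cell markers to 7.00 to 10.5 and 11.1 to 15.3 CPM. Their part in these RNA differences was not tested.

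Translational efficiency (TE), the change in RPFs beyond the change in RNA, gave no call in kidney by edgeR. The authors tested TE with another tool, RiboDiff, which was not run here. They report significant TE changes in a substantial number of kidney and brain transcripts. All 10 log2 TE changes were negative, with a median of -0.96 against 0.08 for all transcripts and -0.12 for coding genes at 1 transcript each. They were -1.12 in Tomm7 (SE 0.25), -1.06 in Romo1 (SE 0.21), -1.05 in Sec61g (SE 0.43), -0.99 in Tomm6 (SE 0.24), -0.98 in Tmem258 (SE 0.25) and -0.94 in Timm8b (SE 0.25). Tomm5 had -0.87 (SE 0.21), Ost4 -0.66 (SE 0.19), Sec61b -0.59 (SE 0.23) and Serp1 -0.13 (SE 0.21). The Sec61g value rests on 19 to 54 RNA counts a library and ran from -1.36 to -0.18 over the alternative fits. By edgeR no member passed, and 0% of transcripts did, with adjusted p from 0.109 in Romo1 to 0.777 in Serp1. At an unadjusted p under 0.05, 9 members stood, all but Serp1, where 19.4% of transcripts did.

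Kidney TE calls changed with the fit. DESeq2 passed 7 members, Ost4, Tmem258, Tomm5, Tomm6, Tomm7, Romo1 and Timm8b, where 4.61% of transcripts passed. With 1 transcript per gene, edgeR passed Tmem258, Tomm6, Tomm7 and Romo1, where 1.83% of genes passed. Without KO RNA-seq library 1, edgeR passed 8 members where 18% of transcripts passed, and with KO RNA-seq libraries 2 and 3 both left out the median was -0.66 and no member passed.

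**Figure D2:**
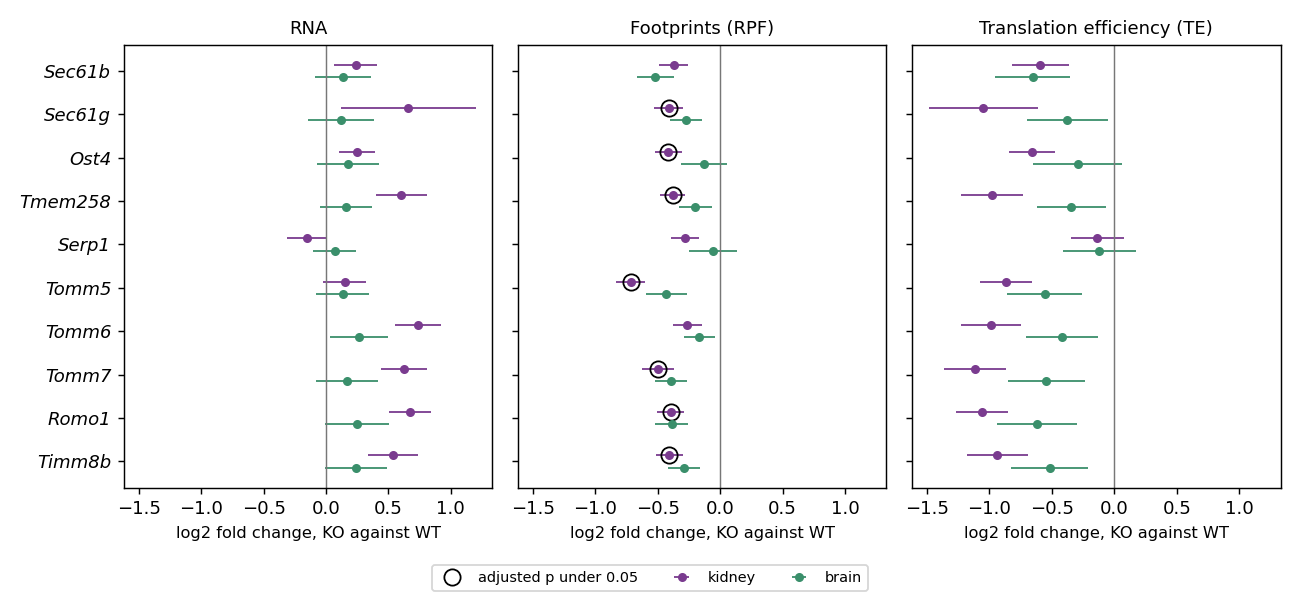
Log2 fold changes, KO against WT, of the 10 members in RNA, RPF and TE for kidney and brain, with bars of 1 SE and circles around values with an adjusted p under 0.05. Kidney RPF and TE values are negative for all 10 members, kidney RNA values are positive for all but Serp1, and the brain RPF and TE values are negative for all 10 with no circle.

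In brain RPFs no member passed the test. All 10 log2 fold changes were negative, with a median of -0.28 against -0.01 for all transcripts. By edgeR none passed, where 0.0345% of transcripts did, and by DESeq2 none passed, where 0.443% did. At an unadjusted p under 0.05, 5 members stood (Sec61b, Tomm5, Tomm7, Romo1 and Timm8b), where 12.6% of transcripts did. In 4 members every KO library lay below every WT library, which held for 8.7% of transcripts.

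Sec61b led in brain, with RPFs at 7.64, 10.8 and 8.80 CPM in WT and 5.35, 6.63 and 6.55 CPM in KO. The log2 fold change was -0.52 (SE 0.15, adjusted p = 0.245). Tomm5 was at 7.40, 8.54 and 6.55 CPM in WT and 6.37, 5.79 and 4.26 CPM in KO, with KO library 1 close to WT library 3 (-0.43, SE 0.16). Tomm7 was at 20.7, 25.7 and 21.2 CPM in WT and 19.1, 15.1 and 17.2 CPM in KO (-0.39, SE 0.13). Romo1 was at 16.5, 20.3 and 16.7 CPM in WT and 15.7, 12.3 and 12.7 CPM in KO (-0.39, SE 0.13). These 4 are the members whose groups did not overlap. Serp1 overlapped widely, at 3.70, 6.49 and 5.03 CPM in WT and 5.57, 4.45 and 4.21 CPM in KO (-0.06, SE 0.19), and Ost4 had -0.13 (SE 0.18). Blood markers, all 3 detected, summed to 324 to 936 CPM in WT brain RPFs and 177 to 225 CPM in KO, and their part was not tested.

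**Figure D3:**
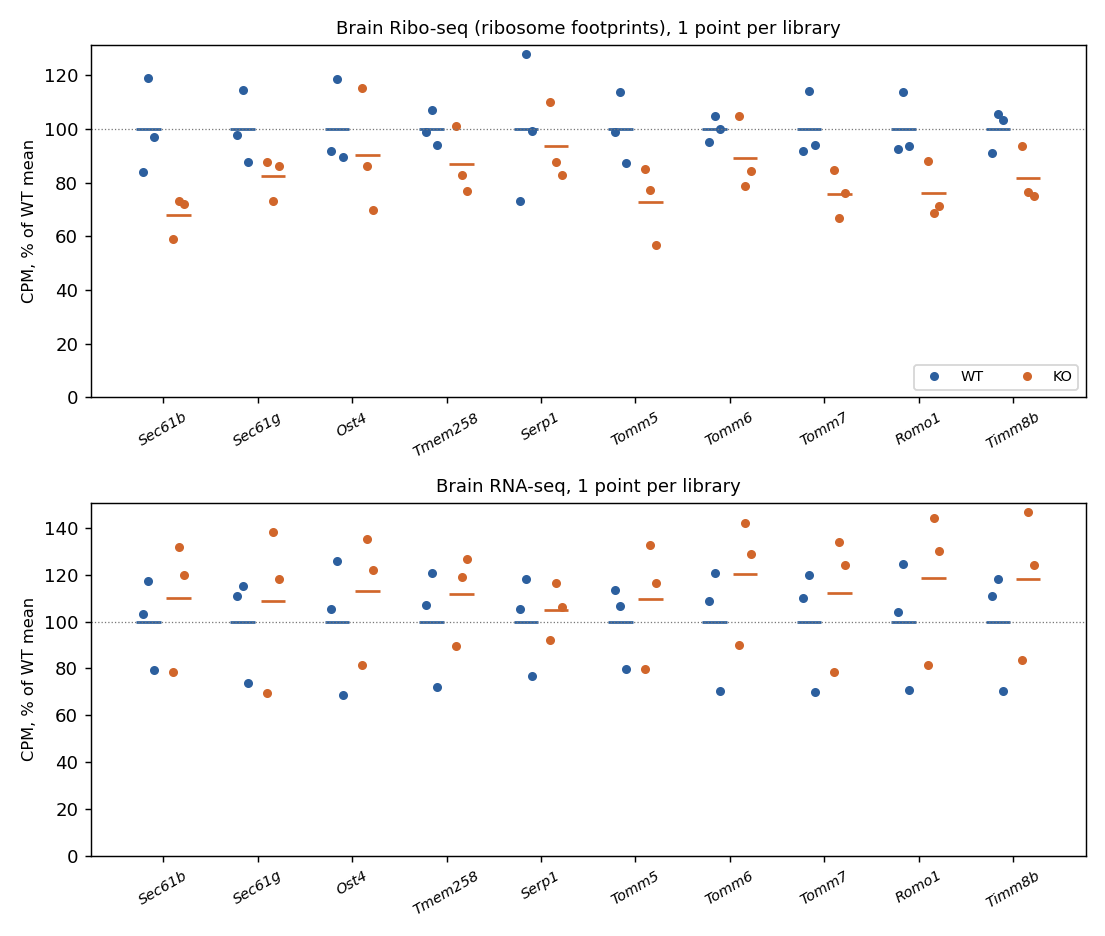
Levels of the 10 members in brain Ribo-seq and RNA-seq, in CPM as a percent of the WT mean of each gene, with 1 point per library and bars at the group means. In Ribo-seq the KO points of Sec61b, Tomm5, Tomm7 and Romo1 lie below all WT points, and in RNA-seq the groups overlap for every member.

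In brain RNA the log2 fold changes ran from 0.07 in Serp1 to 0.27 in Tomm6, with a median of 0.16. The median was -0.02 for all transcripts, 0.097 for coding genes at 1 transcript each and 0.14 for other genes of 100 amino acids or fewer. WT and KO libraries overlapped in all 10 members. Groups without overlap occurred in 5.08% of transcripts with KO above WT and 4.43% with KO below. No member passed edgeR's test, where 0.0134% of transcripts passed, none had an unadjusted p under 0.05, where 3.46% did, and none passed by DESeq2, where 0.0258% did. WT library 3 and KO library 1 were the low libraries in most members: Tomm7, for example, was at 34.8, 38.0 and 22.2 CPM in WT and 24.9, 42.4 and 39.3 CPM in KO. Brain TE changes were negative in all 10 members, with a median of -0.47. That median was 0.01 for all transcripts, -0.11 for coding genes at 1 transcript each and -0.36 for the other short genes. The lowest were -0.65 in Sec61b (SE 0.30) and -0.62 in Romo1 (SE 0.32). None passed by edgeR or DESeq2, where 0% and 0.0182% of transcripts did, and 1 member, Sec61b, had an unadjusted p under 0.05, where 4.85% did.

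The genotype effect was not shown to differ between kidney and brain for any member. In the tissue by genotype term for RPFs, kidney minus brain, the log2 differences ran from -0.28 in Ost4 (SE 0.22) to 0.15 in Sec61b (SE 0.20), with a median of -0.12. For RNA they ran from -0.22 in Serp1 (SE 0.26) to 0.52 in Sec61g (SE 0.53), with a median of 0.36. By edgeR no member passed in either, where 0.0801% of transcripts passed for RPFs and 0.00108% for RNA, and no member had an unadjusted p under 0.05, where 7.69% and 8.13% did. DESeq2 passed no member in either, where 0.255% and 0.113% of transcripts passed. The intervals are wide: for Tomm5 RPFs the difference was -0.28 with an SE of 0.20.

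Disomes, the footprints of ribosomes that run into each other, had low counts on the members in these shallow libraries. Scaled to library size, WT kidney disomes ran from 2.54 CPM in Tomm5 to 71.7 in Sec61g, where RPFs were at 9.31 and 26.3 CPM. Sec61g had the most, with 63 to 198 counts a library, and Tomm5, which was not tested in disomes, had 2 to 12. Of the 9 members tested, 8 had negative log2 fold changes in KO kidney, with a median of -0.40 against 0.00 for all transcripts. By edgeR none passed, where 0.201% of transcripts did, and by DESeq2 none passed, where 0.184% did. With WT and KO libraries of the same number paired, 0.674% of transcripts and no member passed. At an unadjusted p under 0.05, 4 members stood (Tmem258, Serp1, Tomm6 and Tomm7), where 10.8% of transcripts did. KO libraries lay below all WT libraries in Sec61b, Tmem258, Serp1 and Tomm7, 4 of 10 members, where 8.9% of transcripts did so.

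Serp1 disomes were at 19.7, 18.0 and 18.1 CPM in WT (57, 53 and 20 counts) and 7.89, 14.1 and 10.7 CPM in KO (17, 25 and 11 counts). The log2 fold change was -0.79 (SE 0.26, adjusted p = 0.225), the lowest among members and larger in size than the -0.28 of its RPFs. Tmem258 disomes were at 15.9, 15.3 and 18.1 CPM in WT and 11.1, 9.02 and 9.75 CPM in KO (-0.68, SE 0.25, adjusted p = 0.308). Tomm7 disomes were at 30.8, 25.5 and 29.9 CPM in WT and 20.0, 19.2 and 24.4 CPM in KO (-0.46, SE 0.21). Romo1 had the only positive value, at 19.7, 19.4 and 17.2 CPM in WT and 25.5, 20.9 and 18.5 CPM in KO (0.22, SE 0.22), with overlapping libraries.

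Set against RPFs, disomes of the members did not move one way. The log2 change of disomes beyond that of RPFs had a median of 0.06 over the 10 members, with 6 positive and 4 negative. By edgeR none passed, where 0% of transcripts did, and by DESeq2 none passed, where 0.0149% did. With the 2 assays paired within genotype, 0.274% of transcripts and no member passed. Only Romo1 (0.63, SE 0.22, adjusted p = 0.779) had an unadjusted p under 0.05, where 5.91% of transcripts did. Serp1 had -0.50 (SE 0.27), Tomm6 -0.31 (SE 0.31) and Tmem258 -0.28 (SE 0.24). In the disome libraries the 9 tubule markers summed to 2726 to 3099 CPM in WT and 3530 to 3976 CPM in KO, and the 3 blood markers to 148 to 162 and 81.7 to 115 CPM. The 2 glomerulus markers, of which 2 had 10 or more counts in WT and 1 in KO, summed to 15.4 to 16.7 CPM in WT. In KO they summed to 0.975 to 6.03 CPM, where 0.975 CPM is 1 count. Their part was not tested.

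**Figure D4:**
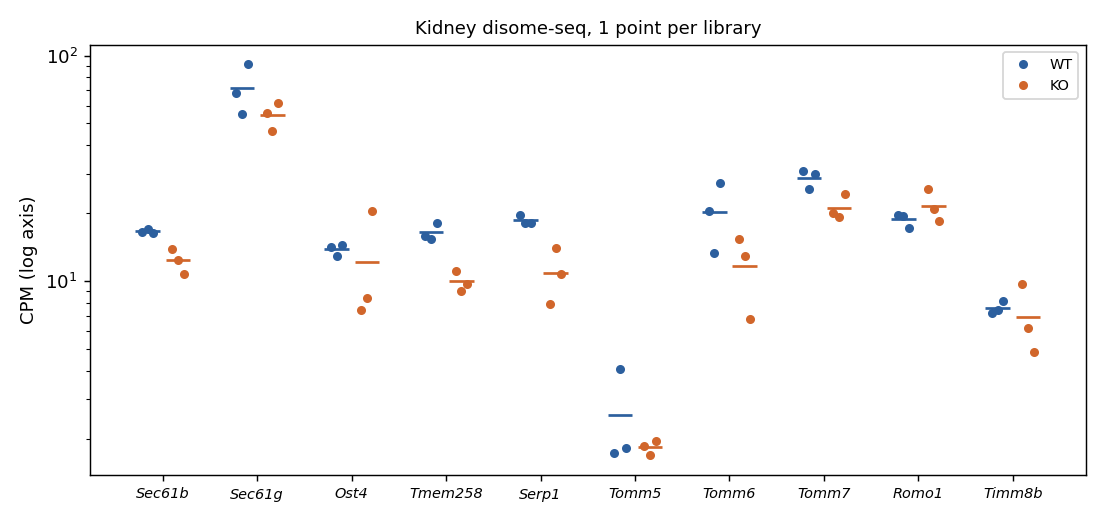
Kidney disome levels of the 10 members, in CPM on a log axis, with 1 point per library, WT or KO, and bars at the group means. KO points lie below all WT points in Sec61b, Tmem258, Serp1 and Tomm7, and Romo1 has the only KO mean above its WT mean.

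Partners of these proteins were read from 6 pathway lists, which hold large and small proteins. No test was made of the lists against the members. Of 28 tested ER translocon and targeting partners, 1 fell in kidney RPFs, Srp14 (-0.40, adjusted p = 0.0433), a subunit of the signal recognition particle, and the median was -0.01. None of 11 oligosaccharyltransferase partners passed by edgeR or DESeq2, 2 had an unadjusted p under 0.05, and their values had a median of 0.13 and ran from -0.21 in Ostc to 0.31 in the catalytic subunit Stt3a. Of 17 insertion factors, Emc1 rose (0.54, adjusted p = 0.0146) while Emc6 (-0.55, adjusted p = 0.0223) and Emc8 (-0.47, adjusted p = 0.0284) fell, all 3 being subunits of the ER membrane protein complex. Emc6 has 110 amino acids and Emc1 997, and no relation of protein length to the change was tested in these lists.

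Among 9 TOM partners, Tomm40, the channel itself, fell (-0.38, adjusted p = 0.0339), with kidney RPFs at 22.7, 21.8 and 23.1 CPM in WT and 17.2, 17.5 and 17.4 CPM in KO, and the list's median was -0.24. Among 19 TIM and intermembrane space partners, Timm9 (-0.48, adjusted p = 0.0485), a small TIM chaperone, and the inner-membrane channel subunits Timm17b (-0.62, adjusted p = 0.00773) and Timm23 (-0.47, adjusted p = 0.0199) fell, with a median of -0.27. None of 13 ER stress genes passed by edgeR, 1 passed by DESeq2 and 3 had an unadjusted p under 0.05, with a median of 0.16 and values from -0.59 in Sdf2l1 to 0.41 in Herpud1. Beside these counts, 7.76% of all transcripts passed in kidney RPFs.

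By edgeR no gene of these lists passed in kidney RNA, kidney TE, brain RNA, brain RPFs, brain TE or kidney disomes. Of 97 to 99 genes tested in kidney RNA, kidney TE, brain RNA, brain RPFs and brain TE, 22, 32, 3, 14 and 12 had an unadjusted p under 0.05, where 16.8%, 19.4%, 3.46%, 12.6% and 4.85% of all transcripts did. DESeq2 passed 2, 11, 0, 1 and 0, where 0.766%, 4.61%, 0.0258%, 0.443% and 0.0182% of all transcripts passed. Of 81 tested in kidney disomes, 6 had an unadjusted p under 0.05, where 10.8% of transcripts did, and DESeq2 passed 0, where 0.184% did. In kidney RNA, Srp19 was at 0.89 and Ssr1 at -1.08 among translocon partners, Dnajc19 at 0.83 and Timm13 at 0.82 among TIM partners, Caml at 0.73 and Emc6 at 0.60 among insertion factors, and Magt1 at 0.73 among oligosaccharyltransferase partners. The last 3 lists also held falls, down to -0.34 in TIM partners, -0.27 in insertion factors and -0.30 in oligosaccharyltransferase partners. Their kidney RNA medians were 0.27, 0.14 and 0.08, with 3 of 19, 6 of 17 and 5 of 11 genes negative. The translocon median was 0.07, with 11 of 27 negative. In kidney TE the translocon partners ran from -1.46 in Srp19 to 2.54 in Srp54a, with 14 of 28 positive and a median of -0.10. The oligosaccharyltransferase partners ran from -0.59 in Magt1 to 0.45 in Stt3a, with 6 of 11 positive and a median of 0.00. The insertion factors ran from -1.15 in Emc6 to 0.35 in Bag6 (median -0.14), the TOM partners from -0.61 in Tomm40l to -0.079 in Mtx2 (median -0.30), and the TIM partners from -1.20 in Timm13 to 0.15 in Timm29 (median -0.53). In kidney RNA the ER stress genes had 0.59 in Herpud1 and 0.56 in Atf4 against -0.45 in Pdia4 and -0.44 in Hyou1, and their median was 0.00.

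**Figure D5:**
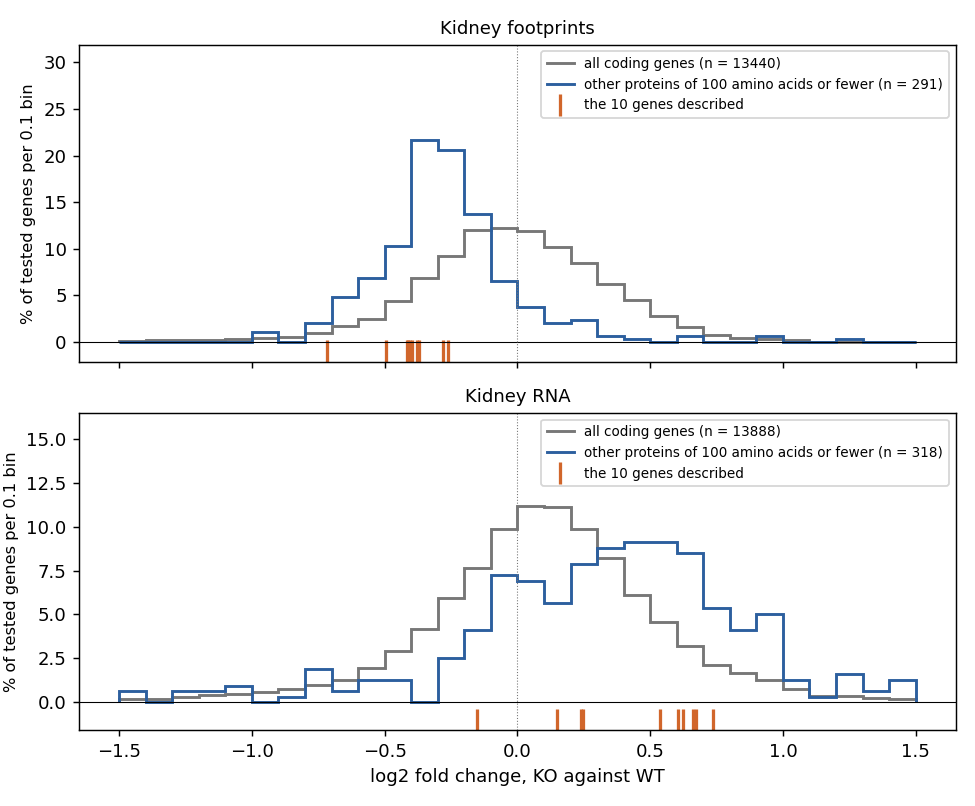
Distribution of kidney RPF log2 fold changes, KO against WT, in the upper panel, and of kidney RNA values in the lower panel, as the percent of genes in each bin of 0.1, for all other genes of 100 amino acids or fewer and for all coding genes, with the 10 members marked. In RPFs the short genes have a median of -0.29 and all coding genes of -0.02, and the members lie between -0.72 and -0.26. In RNA the medians are 0.35 and 0.11, and the members lie between -0.15 and 0.74.

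Short genes outside the list had values of the same sign. Of 291 other genes with a longest protein of 100 amino acids or fewer, 89.0% had a negative log2 fold change in kidney RPFs, with a median of -0.29 against -0.40 for the members and -0.02 for all 13440 coding genes at 1 transcript each. Of those 291, 35 passed as lower (12.0%) and 2 as higher, against 3.90% lower among all coding genes. The deleted gene, Rpl41, is one of the 35. Without it 34 of 290 passed as lower (11.7%), and the median was -0.29. The medians of the other short genes were 0.35 in kidney RNA, -0.63 in kidney TE, -0.23 in brain RPFs and -0.34 in kidney disomes. The members' medians, 0.57, -0.96, -0.28 and -0.40, had the same signs in each, and no test was made of the members against other short genes.

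The members moved together across libraries, apart from Serp1. After centring log2 CPM within each tissue and assay, the correlation of a member with the mean of the others over 24 RNA-seq and Ribo-seq libraries was 0.97 for Tomm7, 0.95 for Timm8b, 0.95 for Romo1, 0.75 for Sec61g and 0.43 for Serp1. Among 9887 other genes, those closest to the mean of the members were Gabarap (0.97), Ubl5 (0.96), Atp5g1 (0.95), Serf2 (0.94), Mpc2 (0.94), Map1lc3a (0.94), Cisd1 (0.94) and S100a1 (0.94). All 8 encode proteins of 94 to 136 amino acids, and 73 of the closest 100 genes encode 150 or fewer, against 6.71% of the genes compared. These correlations share libraries, genotype and assay effects and are given without a test.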

How the data were processed

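For Ribo-seq and disome-seq the authors treated lysates with RNase I, and RNA-seq used poly(A) RNA. They removed rRNA reads, aligned the rest with STAR with multimapping reads allowed, counted them with featureCounts, and deposited read counts per transcript without normalization. Reads that map to several transcripts can enter each of them. The versions of STAR and featureCounts are not given in the sources used here. Another table names its 28 columns of values after mouse samples but lists human transcripts, so no column was assigned, and the 44 HEK293T samples were not analysed here. Of 142604 transcripts, 141374 matched GENCODE M21 on GRCm38.

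Differences between KO and WT were tested on the deposited counts with edgeR (quasi-likelihood F-test, filterByExpr, TMM scaling by tissue and assay), with Benjamini-Hochberg adjustment over all transcripts. The comparison of WT tissues used the same test, with TMM scaling over the libraries of both tissues together. TE, disomes relative to RPFs and the tissue difference were interaction terms. Replicates were not blocked in the reported fits. Same-numbered WT and KO libraries deviated together in kidney disome-seq (correlations 0.120 to 0.209), as did kidney RNA-seq and Ribo-seq libraries (0.125 to 0.257) and kidney Ribo-seq and disome-seq libraries (0.145 to 0.396) of 1 genotype, and these were taken as paired in an alternative fit. Alternatives were DESeq2, library totals, other filters, 1 transcript per gene, counts summed per gene, the principal transcript, a replicate block, each library left out in turn, and KO kidney RNA-seq libraries 2 and 3 both left out. The last, and the principal transcript, were added after seeing the data.

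Genes named are the 10 members, Rpl41, and from each pathway list the genes called or, where none or more than 4 were called, the 2 largest rises and 2 largest falls, with examples taken from these after their values were seen, and the 8 genes most like the members. The members and lists were chosen with earlier results of these data known. The fits were tested on simulated counts, at a change larger than that of any member in kidney RPFs. How well they find smaller changes was not tested. Intervals cover counting and library spread only. Versions were edgeR 4.0.16 and DESeq2 1.42.0 in R 4.3.3, and pandas 2.3.3 and matplotlib 3.10.9 in Python 3.11.15.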

Additional observations from a re-analysis of the deposited data

How the results depend on the processing

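The signs of the 10 members in kidney RPFs and the direction of TE in kidney, apart from Serp1, held in all alternatives run, while the number of calls did not. Library totals in place of TMM moved the median of all transcripts by -0.16 in kidney RNA and by -0.25 between WT tissues in RNA, and 9 of 10 members stayed above that median in kidney RNA. Depth limits the disome values, with under 100 counts a library for all members but Sec61g, and Sec61g in kidney RNA, with 19 to 54. The causes of the changes below were not tested.

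Calls over all transcripts under DESeq2 were 540 in kidney RNA, 23 in brain RNA, 3533 in kidney RPFs (3 members), 359 in brain RPFs, 4129 in kidney TE (7 members), 18 in brain TE, 10 in disomes relative to RPFs, and 105 (RNA) and 226 (RPFs) in the tissue difference. With no filter they were 9936 in kidney RPFs, 1573 in brain RPFs, 11 in kidney TE, 5 in brain TE, 278 in disomes, 120 in disomes relative to RPFs and 487 in the tissue difference of RPFs. With at least 10 counts in every library they were 0 in kidney RNA, brain RNA, brain RPFs and the tissue difference of RNA, 16 in disomes, 5 in the tissue difference of RPFs, and 37544 (RNA) and 38367 (RPFs) between WT tissues. With 1 transcript per gene, where fewer features are tested, they were 1 in kidney RNA, 1 in brain RNA, 1434 in kidney RPFs, 2 in brain RPFs, 285 in kidney TE (4 members), 8 in disomes, 0 (RNA) and 29 (RPFs) in the tissue difference, and 12459 (RNA) and 11236 (RPFs) between WT tissues. With counts summed per gene they were 1 in kidney RNA, 5 in brain RNA, 786 in kidney RPFs (1 member), 0 in brain RPFs, 13 in kidney TE, 1 in brain TE, 13 in disomes, 17 in the tissue difference of RPFs, and 16754 (RNA) and 14679 (RPFs) between WT tissues.

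The replicate block gave 2 members in kidney RPFs, 112 calls in brain RPFs, 258 in disomes, 14 in disomes relative to RPFs and 43 in the tissue difference of RPFs, and pairing libraries of 1 genotype across assays gave 193 in disomes relative to RPFs. In the paired comparisons the block changed the call of no member. In the other comparisons at least 1 same-numbered pair correlated at under 0.1, and those libraries were not taken as paired. The sample labels do not say whether they come from the same animals. Correlations were -0.123 to 0.0319 between WT and KO kidney RPFs and -0.0478 to 0.444 between brain RNA and RPFs, where the WT pairs were at 0.185 to 0.444. Between kidney and brain RNA they were 0.0651 to 0.321, where the KO pairs were at 0.140 to 0.305.

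Leaving out each library in turn gave 7 to 12466 calls in kidney RNA (0 to 5 members), 11 to 16 in brain RNA, 285 to 5843 in kidney RPFs (0 to 3 members), 15 to 79 in brain RPFs, 0 to 16559 in kidney TE (0 to 8 members), 0 to 2 in brain TE, 32 to 173 in disomes and 0 to 13 in disomes relative to RPFs. The tissue difference ranged from 0 to 5655 (RNA) and 12 to 125 (RPFs), and WT tissues from 50302 to 63654 (RNA, 5 to 7 members) and 55057 to 59407 (RPFs, 7 to 9 members).

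Signs turned for some members. In kidney RNA, Tomm5 was at -0.012 with library totals, and with KO libraries 2 and 3 left out Sec61g was at -0.22 and Serp1 at 0.040. Brain RNA Serp1 was at -0.0029 with library totals and -0.020 with 1 transcript per gene, and kidney TE Serp1 at 0.015 with counts summed per gene. For disomes relative to RPFs, Sec61b was at 0.026 with DESeq2, Sec61g at -3.4e-05 and Tomm7 at -0.017 without a filter, and Tomm7 at -0.015 with libraries paired within genotype. The tissue difference of RNA was -0.0076 for Ost4 and -0.060 for Tomm5 with library totals, and that of RPFs for Romo1 was 0.045 with counts summed per gene and 0.012 with the block. Between WT tissues, Tomm6 RNA was at -0.094 with library totals, -0.050 with at least 10 counts and -0.069 with 1 transcript per gene.

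With single libraries left out, brain RNA ranged from -0.015 to 0.33 in Sec61b, -0.093 to 0.36 in Sec61g, -0.035 to 0.38 in Ost4, -0.029 to 0.32 in Tmem258, -0.090 to 0.21 in Serp1, -0.026 to 0.32 in Tomm5 and -0.037 to 0.37 in Tomm7, turning without KO library 2 or WT library 3. Brain RPFs ranged from -0.31 to 0.023 in Ost4 and -0.25 to 0.11 in Serp1, brain TE from -0.32 to 0.059 in Serp1, and disomes from -0.40 to 0.11 in Timm8b. Disomes relative to RPFs ranged from -0.15 to 0.099 in Sec61b, -0.11 to 0.18 in Sec61g, -0.38 to 0.33 in Ost4, -0.18 to 0.77 in Tomm5, -0.073 to 0.19 in Tomm7 and -0.0089 to 0.51 in Timm8b. The tissue difference of RNA ranged from -0.092 to 0.25 in Sec61b, -0.044 to 0.85 in Sec61g, -0.13 to 0.28 in Ost4 and -0.17 to 0.17 in Tomm5, and that of RPFs from -0.18 to 0.043 in Tomm6, -0.24 to 0.042 in Tomm7 and -0.084 to 0.12 in Romo1. Tomm6 RNA between WT tissues went from -0.11 to 0.28.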
